A study of Mus musculus with 24 samples.

Results

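The nuclear-encoded genes of the mitochondrial respiratory chain and of ATP synthase were followed in whole mammary glands of 24 aged transgenic mice. The members were taken by biotype and name: protein-coding genes whose symbols begin with Ndufa, Ndufb, Ndufc, Ndufs or Ndufv, the genes Sdha, Sdhb, Sdhc and Sdhd, symbols beginning with Uqcr, the gene Cyc1, symbols from Cox4 to Cox8, and symbols beginning with Atp5. Cox7a1 and Cox8b, which are striated muscle or brown fat forms, were left out by the rule and serve here only for comparison. The rule found 93 of the 55487 genes in the deposited table, and 91 of them were among the 19325 genes that reached 1 TPM in at least 3 libraries and were tested. TPM, transcripts per 1000000, gives each gene as a length-corrected share of all transcripts estimated in a library. By role the members divide into 36 subunits of complex I, 8 complex I assembly factors, 4 subunits of complex II, 9 of complex III, 18 of complex IV (16 tested) and 18 genes of ATP synthase. The complex I subunits include the 7 nuclear-encoded core subunits, which carry the electrons.

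The series asks how the mammary transcriptome differs between 2 transgenic lines during reproductive senescence and whether tamoxifen or letrozole act on it differently in each. The genotypes are MMTV-rtTA/tet-op-Esr1, for the oestrogen receptor alpha gene, and MMTV-rtTA/tet-op-CYP19A1, for the gene of aromatase, the enzyme that makes oestrogens from androgens. The MMTV promoter, which is active mainly in mammary epithelium, drives the rtTA activator in both. Each line was sampled in 4 conditions with 3 mice each: 18-month mice whose transgene had been induced for 6 months, untreated 20-month mice induced for 8 months, and 20-month mice, also induced for 8 months, given tamoxifen or letrozole. The drug came from a subcutaneous pellet (25 mg tamoxifen or 2.5 mg letrozole, rated for 60 days) placed at the age of 18 months, so exposure lasted 2 months. Tamoxifen binds the oestrogen receptor and modulates it, whereas letrozole blocks aromatase. All 24 mice carried a transgene, so no comparison with transgene-free mice exists, and the 20-month mice without drug, called untreated here, carry a PLA tag that the labels do not explain. The 18-month library names carry the tag 6MDoxy, read here as 6 months of doxycycline. The 20-month names give no inducer, and untreated means only without tamoxifen or letrozole. Age and length of induction differ together between the 18-month and 20-month groups. The replicates are labelled biological and bear different animal numbers.

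The respiratory chain passes electrons from NADH through complex I and from succinate through complex II to ubiquinone, then through complex III and cytochrome c to complex IV, which reduces oxygen. Complexes I, III and IV pump protons, and ATP synthase uses the proton gradient to make ATP. Complex II is wholly nuclear-encoded, whereas the other complexes and ATP synthase join nuclear subunits with a few subunits from mitochondrial DNA. Several complex IV subunits exist as a widely expressed form and a form of striated muscle, such as Cox6a1 and Cox6a2, and many nuclear genes of the chain carry binding sites for the factors NRF1, GABP (an ETS family factor), YY1 and the oestrogen-related receptors (ERR). An aged mammary gland holds epithelium within a large pad of white fat, and dissected tissue can include muscle of the body wall.

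Sequencing depth is unknown because TPM keeps no read counts, and 14410 to 17684 genes reached 1 TPM per library. Several kinds of difference between libraries bear on the values below. Skeletal muscle transcripts varied widely: the 12 markers (among them Acta1, Ckm and Myh4) summed to between 21.8 and 31628 TPM, and their mean log2(TPM + 1) was 3.48 in 18-month Esr1 replicate 1 and 1.27 in 18-month CYP19A1 replicate 3 against 7.73 to 10.8 in the other 22 libraries. In untreated Esr1 replicate 2 a ribosomal RNA gene model took 17.4% of TPM, against at most 2.02% elsewhere. These 3 libraries stand apart, and counts are given below with and without them. Transcripts of mitochondrial DNA took 9.82% to 27.9% of TPM. Esr1 itself ranged from 6.98 to 17.4 TPM in the 12 libraries labelled Esr1 and from 12.2 to 19.2 TPM in the 12 labelled CYP19A1, so the label was not reflected in that transcript. Mouse Cyp19a1 stayed at or below 0.27 TPM. The deposited values hold 0 genes named CYP19A1 in capitals, so a human transgene transcript could not be read by that name. The lines are therefore named by their labels throughout, and every direction given between them rests on those labels. In whole tissue, fewer cells of a type and less RNA per cell cannot be told apart.

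Most members were abundant in every library. Of the 93, 87 reached 1 TPM in all 24 libraries and 76 exceeded 20 TPM in all of them, and together the tested members made up 0.571% to 1.32% of TPM. In ATP synthase the highest mean over the 24 libraries belonged to Atp5b, the catalytic beta subunit, at 596 TPM (range 320.0 to 824), followed by Atp5a1, its alpha partner, at 281 TPM and Atp5h, a subunit of the peripheral stalk, at 199 TPM. In complex IV they were Cox4i1 at 323 TPM (range 260.2 to 373), Cox5b at 282 TPM and Ndufa4, a gene named after complex I whose product is now assigned to complex IV, at 272 TPM. Complex III was led by Uqcrh, the hinge protein near cytochrome c1, at 212 TPM, Uqcr11 at 194 TPM and Uqcrb at 180.3 TPM. Complex I was led by the accessory subunits Ndufb8 at 154 TPM, Ndufb9 at 147 TPM and Ndufa3 at 136 TPM. In complex II the catalytic flavoprotein Sdha averaged 111 TPM (range 52.0 to 157), the iron-sulfur subunit Sdhb 95.2 TPM, and the membrane anchors Sdhc and Sdhd 84.5 and 69.3 TPM. Assembly factors of complex I, which help build the enzyme without remaining in it, lay well lower, with Ndufaf3 at 15.2 TPM, Ndufaf8 at 14.2 TPM and Ndufaf1 at 11.3 TPM as the highest. Subunit c, which forms the rotating ring of ATP synthase, is encoded by 3 genes for an identical mature protein, and Atp5g3 (148 TPM) and Atp5g1 (137 TPM) were well above Atp5g2 (23.5 TPM). Several paralogs were low: Ndufa4l2 averaged 4.43 TPM, Cox6b2 1.92 TPM and Cox4i2 1.43 TPM, while Cox7b2 (highest 0.07 TPM) and Cox8c (highest 0.17 TPM) were too low to test. Atp5o appears as 2 gene models, of which the second never exceeded 1.93 TPM.

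Promoters were available from RefSeq for 74 of the members, as windows from 250 bases before to 50 bases after the annotated start on assembly GRCm38.p6, and were searched on both strands for 4 motifs. The NRF1 motif GCGCANGCG was present for 22 of the 74 members (29.7%) and for 7.03% of the 27025 genes in the RefSeq table. Over all 32851 windows, some genes having several, the share was 6.25%. The ETS family motif CCGGAAG, the core recognised by GABP, was present for 19 members (25.7%) against 9.93% of genes and 8.86% of windows. The YY1 motif AAGATGGCG was present for 8 members (10.8%) against 1.64% of genes and 1.40% of windows, and the ERR motif TCAAGGTCA for 2 members (2.7%) against 0.466% of genes and 0.423% of windows. A match to letters is a description of the sequence and does not show that a factor binds there.

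The 250 bases before the start are printed for 5 members, all on the minus strand, with matches in capitals. Atp5e (chr2:174464102-174464351), a member called in 4 of the comparisons below, has 1 ETS match, shown as the reverse complement CTTCCGG. Ndufs5 (chr4:123718187-123718436), with the largest called difference under letrozole, has 1 NRF1 match. Sdha (chr13:74350241-74350490) has 3 separate NRF1 matches. Cox6a1 (chr5:115348959-115349208), the widely expressed partner of the muscle form Cox6a2, has overlapping NRF1 matches on the 2 strands, 1 further NRF1 match downstream and 1 ETS match near the start. Atp5g3 (chr2:73911327-73911576) carries the reverse complement of the ERR motif, TGACCTTGA. Its window lies inside the RefSeq span of the gene (chr2:73908447-73912464), before a start other than the outermost.
Atp5e: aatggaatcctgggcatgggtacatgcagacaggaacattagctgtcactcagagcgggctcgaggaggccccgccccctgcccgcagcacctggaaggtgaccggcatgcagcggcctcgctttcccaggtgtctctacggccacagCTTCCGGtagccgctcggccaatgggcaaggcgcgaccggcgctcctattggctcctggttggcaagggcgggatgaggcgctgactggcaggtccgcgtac
Ndufs5: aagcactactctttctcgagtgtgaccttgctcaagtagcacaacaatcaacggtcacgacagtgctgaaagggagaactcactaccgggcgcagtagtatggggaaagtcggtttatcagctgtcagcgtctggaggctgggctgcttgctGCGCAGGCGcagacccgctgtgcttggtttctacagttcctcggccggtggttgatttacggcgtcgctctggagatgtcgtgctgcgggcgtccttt
Sdha: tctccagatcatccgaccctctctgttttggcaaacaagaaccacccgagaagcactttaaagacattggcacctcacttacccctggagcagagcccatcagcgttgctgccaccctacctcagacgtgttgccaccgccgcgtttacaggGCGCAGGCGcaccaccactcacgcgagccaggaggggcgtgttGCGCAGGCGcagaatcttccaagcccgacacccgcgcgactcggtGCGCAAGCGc
Cox6a1: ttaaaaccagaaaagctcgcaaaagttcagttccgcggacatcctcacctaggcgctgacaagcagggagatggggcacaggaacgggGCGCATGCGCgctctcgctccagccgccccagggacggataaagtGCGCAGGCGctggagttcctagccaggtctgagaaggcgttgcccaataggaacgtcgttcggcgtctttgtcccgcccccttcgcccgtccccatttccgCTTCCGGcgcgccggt
Atp5g3: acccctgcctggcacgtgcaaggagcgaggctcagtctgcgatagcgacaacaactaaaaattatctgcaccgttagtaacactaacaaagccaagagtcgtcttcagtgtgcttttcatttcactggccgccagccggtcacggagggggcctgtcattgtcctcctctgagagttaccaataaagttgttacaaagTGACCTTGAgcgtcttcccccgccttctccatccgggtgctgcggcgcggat

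Across the 8 groups the summed level of the 91 tested members was lowest in Esr1 mice at 18 months (7997 ± 607 TPM, mean ± SD, n = 3 in each group) and in untreated Esr1 mice at 20 months (7935 ± 1949 TPM). It was 9456 ± 938 TPM in tamoxifen-treated and 10669.8 ± 537 TPM in letrozole-treated Esr1 mice. In the CYP19A1 line it was 8745 ± 643 TPM at 18 months, 10823 ± 1288 TPM at 20 months untreated, 11757 ± 1669 TPM with tamoxifen and 11238 ± 895 TPM with letrozole. The lowest single library, at 5711 TPM, was untreated Esr1 replicate 2, the library rich in ribosomal RNA, which held the lowest value of 76 of the 91 members. The highest, at 13191 TPM, was tamoxifen-treated CYP19A1 replicate 2, which held the highest value of 52. Within the sum the complexes kept similar proportions: complex I made up 27.8% to 29.3% of it in every library, ATP synthase 29.0% to 32.2%, complex IV 23.4% to 27.5%, complex III 10.4% to 11.95% and complex II 3.10% to 3.92%. Complex II, for example, went from 265 ± 19.9 and 264 ± 75.8 TPM in Esr1 mice at 18 months and untreated at 20 months to 455 ± 63.4 TPM in tamoxifen-treated CYP19A1 mice. The complex IV share did differ within the CYP19A1 line. It was 25.7% to 26.9% in the 18-month libraries and 23.4% to 24.3% in the untreated 20-month libraries, while in the Esr1 line these groups overlapped. The assembly factors moved least in absolute terms, between 69.5 ± 17.2 TPM in untreated Esr1 mice and 92.3 ± 4.96 TPM in letrozole-treated Esr1 mice.

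By complex, the sums give the following levels (mean ± SD, n = 3). Complex I summed to 2274 ± 140.3 TPM at 18 months, 2292 ± 577 TPM untreated, 2707 ± 268 TPM with tamoxifen and 3108 ± 149 TPM with letrozole in the Esr1 line. The CYP19A1 values in the same order were 2454 ± 186, 3093 ± 359, 3321 ± 485 and 3186 ± 247 TPM. Letrozole gave the highest of the 4 Esr1 means and tamoxifen the highest of the 4 CYP19A1 means. Complex III was at 847 ± 67.5 TPM at 18 months, 875 ± 230.2 TPM untreated, 1070.1 ± 121 TPM with tamoxifen and 1211 ± 66.6 TPM with letrozole in the Esr1 line. The CYP19A1 values in the same order were 971 ± 66.8, 1261 ± 149, 1350.2 ± 249 and 1286 ± 97.7 TPM. Letrozole-treated Esr1 mice and tamoxifen-treated CYP19A1 mice again had the highest mean of their line. Complex IV reached 2109 ± 138 TPM at 18 months, 2037 ± 479 TPM untreated, 2304 ± 239.7 TPM with tamoxifen and 2550.2 ± 118 TPM with letrozole in the Esr1 line. The CYP19A1 values in the same order were 2285 ± 128, 2581 ± 258, 2865 ± 389 and 2699 ± 216 TPM. Here untreated Esr1 mice had the lowest mean and tamoxifen-treated CYP19A1 mice the highest. ATP synthase, the largest sum in every group, was at 2426 ± 261 TPM at 18 months, 2398 ± 577 TPM untreated, 2933 ± 263 TPM with tamoxifen and 3316 ± 187 TPM with letrozole in the Esr1 line. The CYP19A1 values in the same order were 2630.2 ± 247, 3405 ± 457, 3676 ± 479 and 3565 ± 295 TPM. In each of these complexes untreated Esr1 mice had the widest spread of the 4 Esr1 groups, and the CYP19A1 mean exceeded the Esr1 mean in all 4 conditions.

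The most abundant member of each complex varied to different extents over the groups (mean ± SD, n = 3). Atp5b was at 481 ± 39.9, 449 ± 112, 574 ± 59.0 and 630.3 ± 32.3 TPM in the Esr1 line (18 months, untreated, tamoxifen, letrozole) and at 523 ± 39.1, 673 ± 114, 741 ± 98.8 and 692 ± 55.0 TPM in the CYP19A1 line. Ndufb8 was at 123 ± 12.6, 120.4 ± 32.6, 144 ± 16.8 and 171 ± 12.5 TPM in the Esr1 line (18 months, untreated, tamoxifen, letrozole) and at 128 ± 3.89, 173 ± 27.9, 189 ± 23.8 and 180.1 ± 16.5 TPM in the CYP19A1 line. Sdha was at 78.2 ± 9.13, 79.9 ± 24.7, 109 ± 12.7 and 122 ± 8.85 TPM in the Esr1 line (18 months, untreated, tamoxifen, letrozole) and at 103 ± 2.39, 122 ± 30.4, 139 ± 17.8 and 132 ± 4.17 TPM in the CYP19A1 line. In these 3 the lowest mean was in one of the 2 Esr1 groups without a drug and the highest in tamoxifen-treated CYP19A1 mice. Uqcrh was at 177 ± 18.9, 179.7 ± 38.0, 204 ± 17.6 and 223 ± 15.0 TPM in the Esr1 line (18 months, untreated, tamoxifen, letrozole) and at 198 ± 9.26, 238 ± 24.4, 235 ± 38.0 and 241 ± 16.6 TPM in the CYP19A1 line. Cox4i1, the widely expressed form of its subunit, was at 319 ± 35.5, 313 ± 53.1, 297 ± 13.7 and 313 ± 18.9 TPM in the Esr1 line (18 months, untreated, tamoxifen, letrozole) and at 344 ± 22.3, 324 ± 38.5, 351 ± 33.3 and 326 ± 26.5 TPM in the CYP19A1 line. Cox4i1 means spanned a far narrower range than those of Atp5b.

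**Figure D1:**
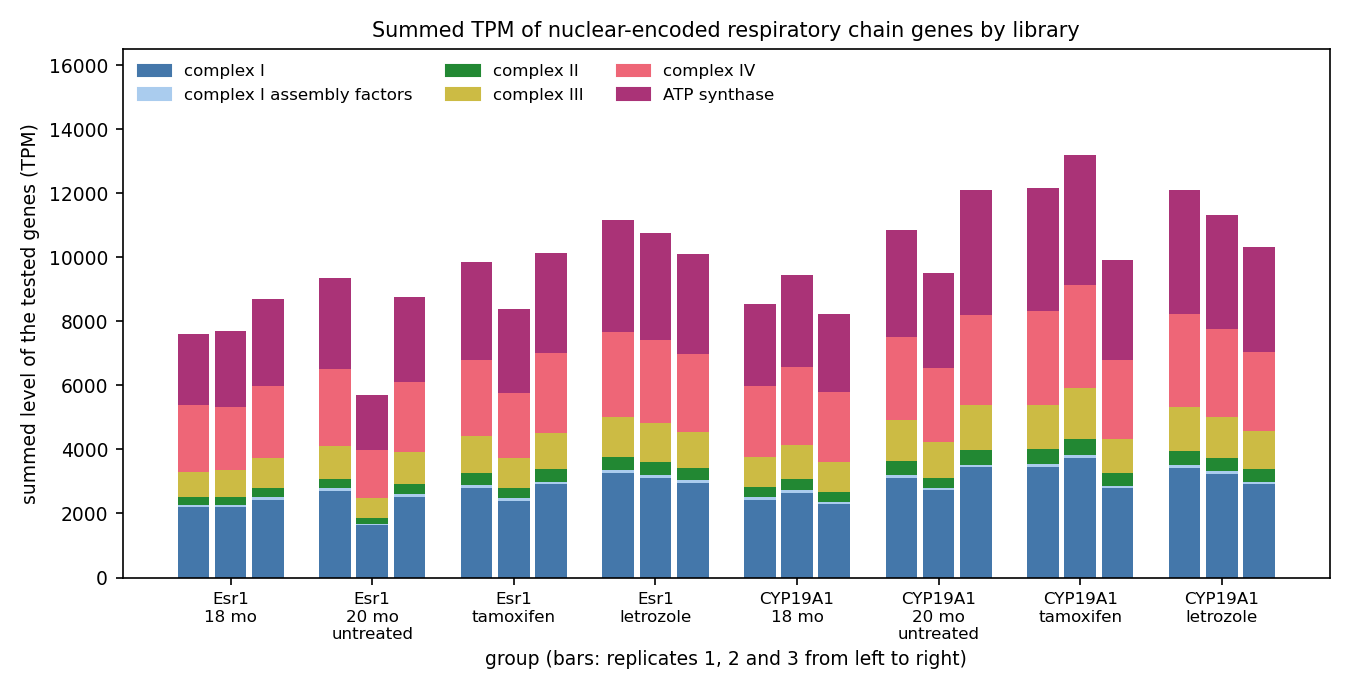
Summed TPM (vertical axis) of the tested members in each of the 24 libraries (bars, replicates 1 to 3 within each group on the horizontal axis), stacked by complex. Sums run from 5711 TPM in untreated Esr1 replicate 2 to 13191 TPM in tamoxifen-treated CYP19A1 replicate 2, and complex I holds 27.8% to 29.3% of each bar.

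Individual members differed in how much they varied over the 24 libraries. The standard deviation of log2(TPM + 1) was smallest for Cox7a2l (0.13), a protein that joins complexes III and IV in supercomplexes, for the complex I subunits Ndufc2 (0.13) and Ndufa7 (0.16), for Cox4i1 (0.14) and for the assembly factor Ndufaf1 (0.17). It was largest for Cox6a2 (1.99), and among the next were the low second model of Atp5o (0.59), Atp5g1 (0.51) and the assembly factor Ndufaf5 (0.47). Cox6a2, the striated muscle form of a complex IV subunit, stood at 1.58, 89.8 and 111 TPM in the 18-month Esr1 libraries and at 36.7, 60.6 and 0.12 TPM in the 18-month CYP19A1 libraries. At 20 months it stood at 152, 46.4 and 144 TPM in untreated Esr1 mice and at 174, 169 and 262 TPM in untreated CYP19A1 mice. With letrozole it reached 247, 235 and 218 TPM in the Esr1 line and 211, 219 and 262 TPM in the CYP19A1 line. With tamoxifen it stood at 232, 158 and 187 TPM in the Esr1 line and 163, 204 and 140.4 TPM in the CYP19A1 line. The near-zero values belonged to the 2 libraries lowest in muscle markers. Its widely expressed partner Cox6a1 was highest in those 2 libraries, and Cox6a2 made up 0.80% and 0.06% of the pair there against 17.7% to 74.7% in the other 22. The same 2 libraries had the highest Cox8a, the widely expressed form of another complex IV subunit, at 286 and 296 TPM. Atp5g1 and Cox6a2 were the only members below all other 22 libraries in both, and Cox8a and Cox6a1 the only ones above. Among genes left out by the rule, Cox7a1 made up 6.12% and 3.75% of its pair with Cox7a2 in those libraries against 15.4% to 46.2% in the others, and Cox8b 1.71% and 8.69% of its pair with Cox8a against 15.0% to 60.4%. By rank, 18-month Esr1 replicate 1 was below all 4 of the unaffected 18-month libraries in 57 of 91 members and above them in 8, and 18-month CYP19A1 replicate 3 in 27 and 8. Below all of the other 22 libraries they lay in 6 and 3 members. These counts give no size of a fall, and the shares of all genes in these positions are not given here.

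**Figure D2:**
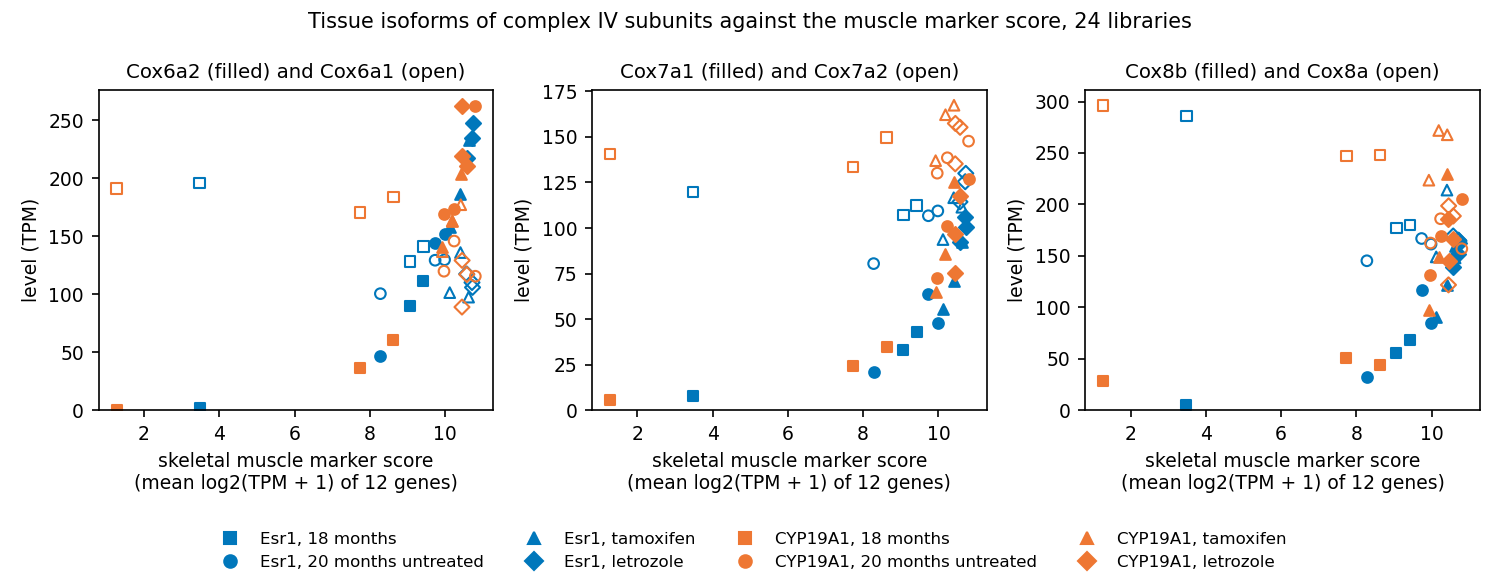
Level in TPM (vertical axes) of 3 pairs of complex IV isoforms against the skeletal muscle marker score, the mean log2(TPM + 1) of 12 marker genes (horizontal axes), 1 filled and 1 open point per library. The 2 libraries with scores of 1.27 and 3.48 have almost no Cox6a2 and the highest Cox6a1 and Cox8a.

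In untreated mice at 20 months, 19 of 91 members were higher in the CYP19A1 line than in the Esr1 line and none was lower (limma on log2(TPM + 1), Benjamini-Hochberg adjusted p under 0.05 over all genes), where 2.12% of all tested genes were called higher. The 19 included 8 of 36 complex I subunits, 1 of 4 complex II subunits, 3 of 9 complex III subunits, 2 of 16 complex IV subunits, 5 of 18 ATP synthase genes and none of the 8 assembly factors. Their differences ran from 0.50 to 1.12 in log2(TPM + 1), a scale on which low genes appear to change less than they do. Of all 91 members, 86 had a positive and 5 a negative difference, with a median of 0.45 against 0.02 over all genes tested, and in 40 members the 3 CYP19A1 values all lay above the 3 Esr1 values, as in 8.55% of all genes.

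The largest called difference was in Atp5e, the epsilon subunit of the central stalk of ATP synthase. Its level was 84.6, 70.4 and 142 TPM in the untreated Esr1 mice and 197, 183 and 243 TPM in the untreated CYP19A1 mice. The groups did not overlap, and the difference was 1.12 (SE 0.20, adjusted p = 0.0024). Atp5l, subunit g of the membrane part, was at 121, 101 and 150.2 TPM and 197, 192 and 219 TPM, a difference of 0.72 (SE 0.15, adjusted p = 0.0078). The subunit c gene Atp5g3 (0.62, adjusted p = 0.020), Atp5mpl (0.62, adjusted p = 0.029) and Atp5j2, subunit f (0.60, adjusted p = 0.0453), were the other ATP synthase genes called. Of the complex I core subunits, Ndufs3 was higher by 0.66 (adjusted p = 0.028) and Ndufv1, which binds NADH, by 0.63 (adjusted p = 0.0454). The accessory subunit Ndufc1 stood at 73.7, 44.2 and 82.8 TPM against 123, 111 and 134 TPM, a difference of 0.91 (SE 0.20, adjusted p = 0.010) with no overlap. Ndufa2, an accessory subunit of the matrix arm, stood at 52.3, 38.5 and 65.7 TPM against 89.6, 75.6 and 93.2 TPM, a difference of 0.74 (SE 0.16, adjusted p = 0.0095). Ndufa6 (0.57, adjusted p = 0.028), Ndufb2 (0.57, adjusted p = 0.038) and Ndufb11 (0.53, adjusted p = 0.041) were also called.

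In complex II the membrane anchor Sdhc was called, at 54.6, 41.9 and 79.0 TPM in untreated Esr1 mice and 101, 83.4 and 103 TPM in untreated CYP19A1 mice. The lowest CYP19A1 value only narrowly exceeded the highest Esr1 value, and the difference was 0.75 (SE 0.18, adjusted p = 0.018). Sdha, Sdhb and Sdhd did not pass, with differences of 0.62 (adjusted p = 0.079), 0.63 (adjusted p = 0.094) and 0.47 (adjusted p = 0.10). In complex III the small subunit Uqcr10 was at 94.8, 58.4 and 102 TPM against 152, 131 and 158 TPM, a difference of 0.82 (SE 0.18, adjusted p = 0.011). The Rieske iron-sulfur protein Uqcrfs1 (0.74, adjusted p = 0.026) and the small subunit Uqcrq (0.76, adjusted p = 0.043) were also higher. In complex IV the called members were Cox5a and Cox7a2, neither of them a muscle-specific form. Cox5a stood at 70.5, 54.3 and 85.5 TPM against 129.9, 97.8 and 150.3 TPM and differed by 0.84 (SE 0.21, adjusted p = 0.023). The muscle form Cox6a2 differed by 0.96 (adjusted p = 0.70) and Cox6a1 by 0.09 (adjusted p = 0.83), and neither passed.

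Leaving out single libraries moved this count widely, and the share of all genes called higher moved with it. Without untreated Esr1 replicate 1, 43 members and 6.61% of all genes were called higher, and without untreated Esr1 replicate 2, 5 members and 0.747%. Without untreated CYP19A1 replicate 1 the count was 5 members, with 0.97% of all genes, and without replicate 3 it was 1, with 0.654%. The median difference of the members fell from 0.45 to 0.24 without untreated Esr1 replicate 2, the library rich in ribosomal RNA, while that of all genes went from 0.02 to -0.15. Without the 3 libraries that stand apart, 9 members were called (Atp5e, Atp5g3, Atp5l, Cox5a, Ndufa2, Ndufa6, Ndufb11, Ndufc1 and Uqcr10), where 1.42% of all genes were called higher. None passed when only these 2 groups entered the fit, and 49 passed after rescaling to nuclear protein-coding genes, where 7.07% of genes were called higher. Over all genes, 409 were called higher and 610 lower, and after that rescaling 1088 and 915. T and NK cell markers moved with this comparison, with 6 of 8 called lower (Ccl5 with a difference of -1.64), and their summed level was 41.9 to 45.1 TPM in untreated Esr1 and 9.35 to 18.7 TPM in untreated CYP19A1 mice. Of 8 epithelial markers Elf5 was called lower, with a difference of -2.22. The summed level of the epithelial markers was 436 to 600.3 TPM in untreated Esr1 and 228 to 348 TPM in untreated CYP19A1 mice, ranges that do not overlap. None of the 12 muscle markers was called, with a summed level of 5789 to 18311 TPM in untreated Esr1 and 18342 to 31628 TPM in untreated CYP19A1 mice, ranges that do not overlap. With the muscle marker score as a covariate 25 members and 3.09% of all genes were called higher. The part of epithelium and of T and NK cells in the result was not tested. Outside the members, the mitochondrially encoded ATP synthase subunit mt-Atp6 was higher by 1.24 (adjusted p = 0.018), 1 of 2 such genes, and none of the 7 mitochondrially encoded complex I subunits, of the 3 of complex IV or of the 24 complex IV assembly factors was called. Of 14 genes for electron carriers and ubiquinone synthesis only Coq6 was called (difference 0.51), of 17 regulators of mitochondrial biogenesis only Ppara (0.95), and of 19 gene models of glycolysis Pgk1 was higher (1.04) and Pfkl lower (-1.05).

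Averaged over the 4 conditions, 21 of 91 members were higher in the CYP19A1 line and none lower, where 3.96% of all tested genes were called higher. This average contains the untreated libraries just described, and 17 members were called in both. They comprised 7 complex I subunits, Sdha and Sdhc of complex II, 3 of complex III, 2 of complex IV and 7 of ATP synthase, with no assembly factor. The median over the members was 0.24 against 0.00 over all genes, with 84 positive and 7 negative differences. By sign, 53 members were higher in CYP19A1 in each of the 4 conditions and 0 lower in each, with no share over all genes given beside these counts. All 21 called members had a positive difference in each of the 4 conditions. They were chosen by a positive mean over these same conditions, so their signs are largely set by that choice.

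Cox7a2 (chr9:79755241-79771422), the widely expressed form of a small complex IV subunit, had the smallest p and was the only called member in which the 12 CYP19A1 libraries all lay above the 12 Esr1 libraries. The share of all genes with such a separation is not given here, so it is no result about the members. Its levels in Esr1 mice were 119.7, 107 and 112 TPM at 18 months, 109, 80.5 and 107 TPM untreated, 111, 93.7 and 117 TPM with tamoxifen and 130.0, 125 and 114 TPM with letrozole. In CYP19A1 mice they were 134, 149.8 and 141 TPM at 18 months, 139, 130.1 and 148 TPM untreated, 162, 167 and 137 TPM with tamoxifen and 155, 157 and 135 TPM with letrozole. The highest Esr1 value and the lowest CYP19A1 value lay close together, and the difference was 0.41 (SE 0.07, adjusted p = 0.00067). Atp5e differed by 0.46 (SE 0.10, adjusted p = 0.0048). Ndufa6, an accessory subunit of the matrix arm, differed by 0.40 (adjusted p = 0.0011), Atp5l by 0.39 (adjusted p = 0.0019) and Ndufb6, an accessory subunit of the membrane arm, by 0.34 (adjusted p = 0.0077). Sdha (0.37, adjusted p = 0.029), Sdhc (0.37, adjusted p = 0.011), Uqcr10 (0.38, adjusted p = 0.0094), Cox5a (0.45, adjusted p = 0.0079) and Atp5b (0.30, adjusted p = 0.048) were also higher. The muscle counterpart Cox7a1 differed by 0.28 (adjusted p = 0.69) and Cox6a2 by -0.09 (adjusted p = 0.96), and neither was called. At 18 months Cox7a1 was at 7.80, 32.9 and 43.1 TPM in the Esr1 line and 24.3, 34.9 and 5.48 TPM in the CYP19A1 line. In untreated mice it was at 47.7, 21.1 and 63.5 TPM and 101, 72.4 and 127 TPM, with no overlap. With tamoxifen and with letrozole the lines overlapped.

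Of these 21 calls, 13 held under every one of the other settings and left-out libraries tried, and the largest adjusted p of any called member under any of them was 0.101. The count fell to 13 without tamoxifen-treated CYP19A1 replicate 2 (3.32% of all genes higher) and was 39 without untreated Esr1 replicate 1 (5.29%). It was 51 after rescaling to nuclear protein-coding genes, where 5.83% of genes were called higher. Without the 3 libraries that stand apart 18 members were higher and 1, the assembly factor Ndufaf5, lower with a difference of -0.25 (adjusted p = 0.036), while calls over all genes went from 765 higher and 639 lower to 681 and 1193. Beside these calls, the white fat markers Cfd (1.19) and Retn (0.80) and 3 of 6 endothelial markers were higher, and the basal keratins Krt14 (-0.72) and Krt5 (-0.69) lower. No muscle, T and NK cell or brown fat marker was called, and the part of the other cell types was not tested. Among neighbouring pathways, 3 of 16 citric acid cycle genes were higher, namely Cs (0.32), Pdhb (0.43) and Dlat (0.41), of which the last pair encode parts of pyruvate dehydrogenase. Coq5 (0.29) and Coq6 (0.25) of ubiquinone synthesis, the complex II assembly factor Sdhaf4 (0.35), mt-Atp6 (0.53) and Ppara (0.41) were higher, and none of 19 glycolysis models was called.

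**Figure D3:**
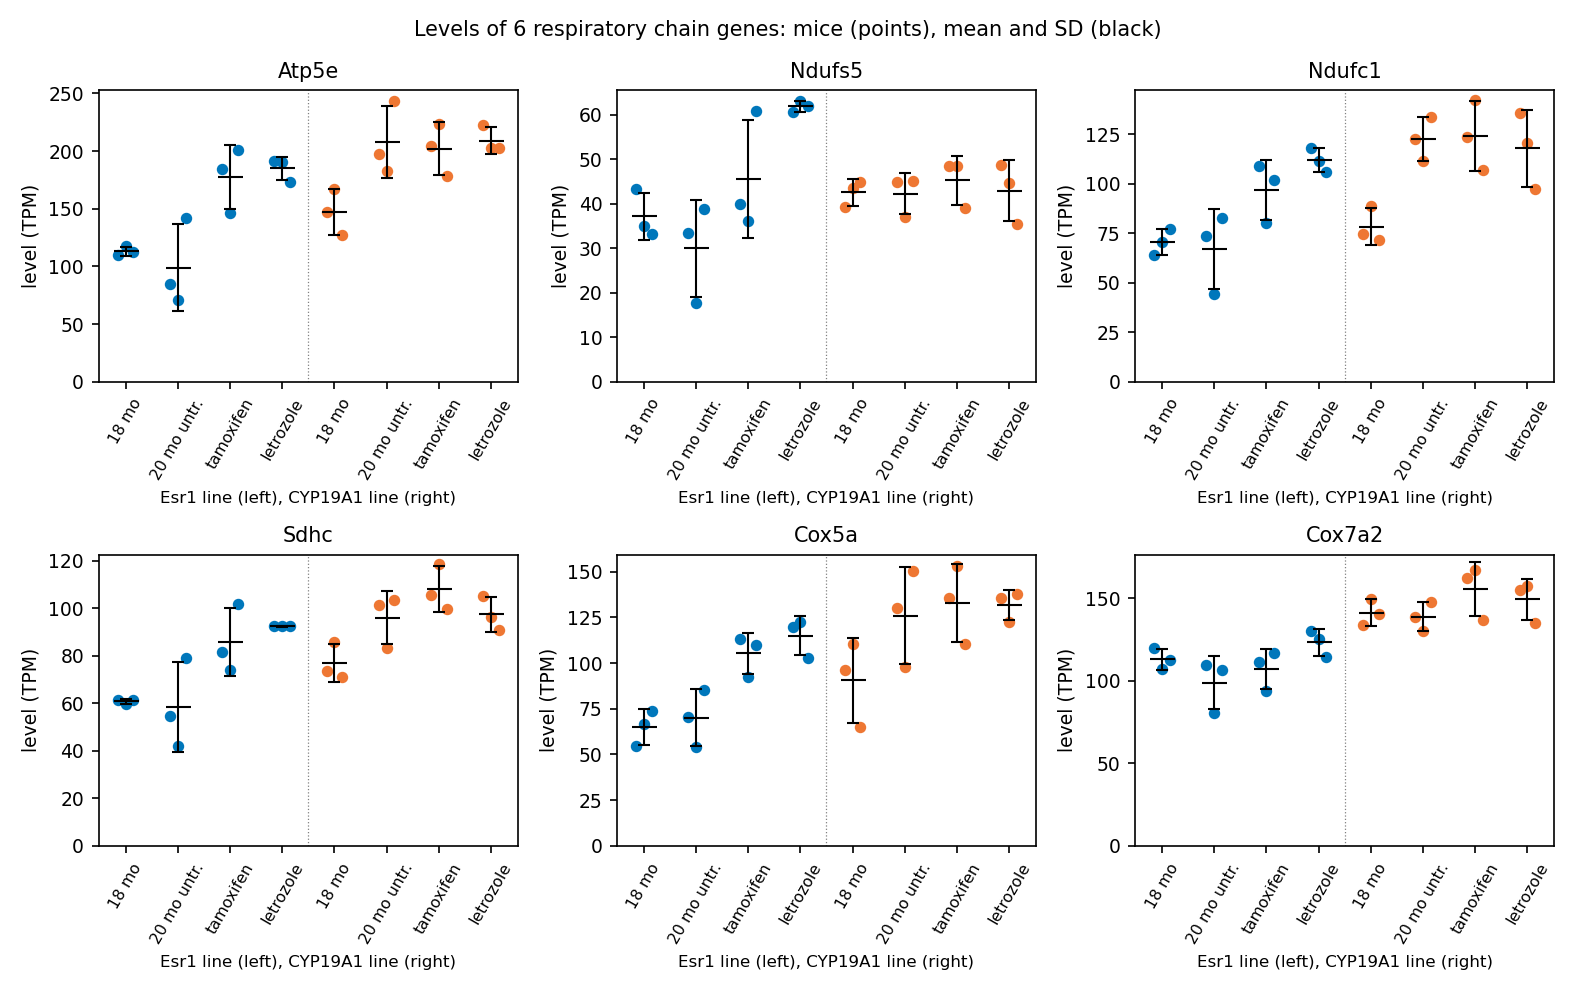
Level in TPM (vertical axes, from 0) of 6 members in the 8 groups (horizontal axes), with 1 point per mouse, the mean as a long bar and the SD as whiskers. The 12 CYP19A1 values of Cox7a2 all exceed the 12 Esr1 values, while Ndufs5 is highest in letrozole-treated Esr1 mice.

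In the other conditions no member passed between the lines. At 18 months 0 of 91 members were called, 6 had an unadjusted p under 0.05, and 1.36% of all genes were called in either direction. Shares of genes called always refer to adjusted p. The share of all genes with an unadjusted p under 0.05 is not given here or below. Counts of members at that unadjusted threshold are therefore no result about the members. The median was 0.15 against 0.06 over all genes, and the smallest p belonged to the assembly factor Ndufaf6 (0.50, adjusted p = 0.45) and to Ndufa12 (0.66, adjusted p = 0.45). Without the 3 libraries that stand apart Cox6a2 was lower in CYP19A1 at 18 months, with a difference of -1.07 (adjusted p = 0.0457). With tamoxifen in both lines 0 members were called, 17 had an unadjusted p under 0.05, and 1.01% of all genes were called in either direction. The median was 0.29 against 0.02, 86 differences were positive, and in 26 members the groups did not overlap, as in 10.3% of all genes. Cox6b2, a form known from testis and low here, stood at 0.76, 0.90 and 1.90 TPM in the Esr1 and 3.48, 3.73 and 2.24 TPM in the CYP19A1 mice with tamoxifen, a difference of 0.94 (adjusted p = 0.083), and Cox7a2 differed by 0.53 (adjusted p = 0.086). Without the 3 libraries that stand apart, none of which is in either tamoxifen group, Cox6b2, Cox7a2 and Ndufa6 passed. Among all genes 127 were higher and 68 lower, and 82 and 80 after rescaling to nuclear protein-coding genes. With letrozole in both lines 0 members were called, 5 had an unadjusted p under 0.05, 0.906% of all genes were called in either direction, and the median was 0.05 against -0.07. The smallest p belonged to Ndufaf1 (-0.39, adjusted p = 0.29) and Ndufa6 (0.37, adjusted p = 0.42).

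**Figure D4:**
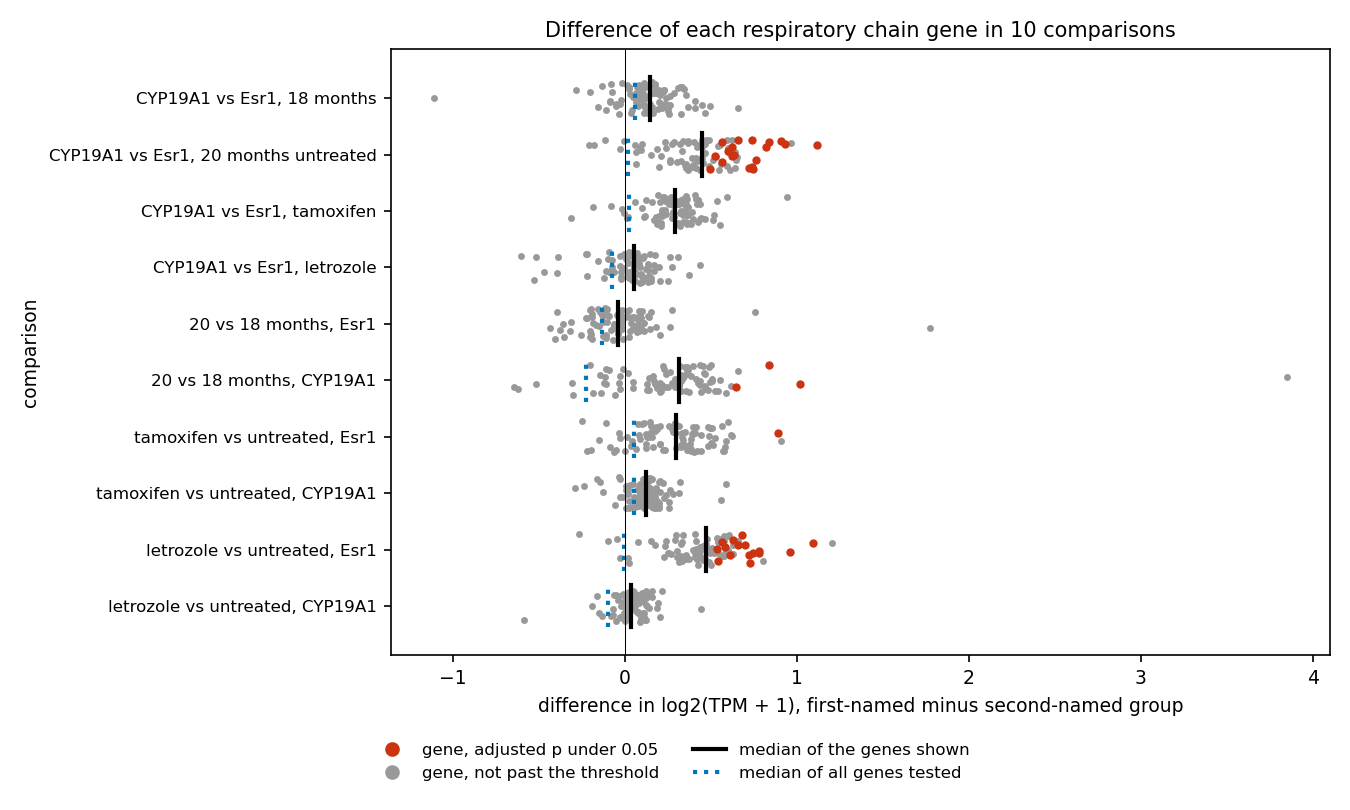
Difference in log2(TPM + 1) (horizontal axis) of each tested member, 1 point per gene, in 10 comparisons (vertical axis), with the median of the members (black bar) and of all genes tested (dotted bar). Called members, with an adjusted p under 0.05, appear in 4 of these comparisons and all lie to the right of 0.

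From 18 to 20 months, 3 members rose in the CYP19A1 line, Atp5g1, Ndufaf5 and Ndufc1, and none fell, where 3.01% of all genes were called higher. As a share of the tested members that count is close to the share over all genes, so it is no result about the members. Atp5g1 was at 94.0, 122 and 49.5 TPM at 18 months and at 147, 149 and 218 TPM in untreated mice at 20 months, with no overlap and a difference of 1.02 (SE 0.28, adjusted p = 0.032). Ndufaf5, an assembly factor that modifies the core subunit Ndufs7, was at 7.10, 8.01 and 4.35 TPM and 11.4, 10.7 and 14.3 TPM, a difference of 0.84 (SE 0.25, adjusted p = 0.043). Ndufc1 was at 74.8, 88.7 and 71.3 TPM and 123, 111 and 134 TPM, a difference of 0.64 (SE 0.20, adjusted p = 0.044). In each of the 3 the lowest 18-month value was in replicate 3, the library poorest in muscle markers. Over all members 72 differences were positive and 19 negative, with a median of 0.32 against -0.23 over all genes, and in 44 members the 20-month values all lay above the 18-month values, as in 7.48% of all genes. In 6 they all lay below, as in 33.8% of all genes. Complex IV had 7 positive and 9 negative differences and a median of -0.06: Cox8a and Cox6a1 had differences of -0.64 (adjusted p = 0.0502) and -0.52 (adjusted p = 0.074), while Cox6a2, at 3.85 (adjusted p = 0.055), did not pass in the fit of all libraries.

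The count of calls with age in the CYP19A1 line depended on single libraries and on the scaling. No member passed without 18-month replicate 1 or 3 or without untreated replicate 2 or 3, where 0.0104% to 1.67% of all genes were called higher. There were 2 calls without 18-month replicate 2 (2.27% of all genes) and 1 without untreated replicate 1 (1.87%), neither above the share over all genes. With the muscle score as a covariate none passed, whereas 44 were called under median-ratio scaling (7.06% of genes higher) and 39 after rescaling to nuclear protein-coding genes (6.08% higher). The median difference of the members was 0.11 with the muscle covariate, against -0.35 over all genes, and 0.57 under median-ratio scaling. Median-ratio scaling moved the median of all genes from -0.23 to -0.02 and the split over all genes from 581 higher and 1246 lower to 1346 and 387. Without the 3 libraries that stand apart 9 members were higher, with 4.97% of all genes, and Cox8a was lower, with a difference of -0.56 (adjusted p = 0.042). Cox6a2 had the smallest p of these, with a difference of 2.04 (adjusted p = 4.3e-05). Muscle marker sums rose with this comparison from 21.8 to 6864 TPM at 18 months to 18342 to 31628 TPM at 20 months, with Myh1 (4.56) and Mb (4.31) called, as was Cpt1b (2.85) of the brown fat list. All 8 T and NK cell markers were lower (Ccl5 with a difference of -1.99), with sums of 36.9 to 86.0 and 9.35 to 18.7 TPM. Epithelial marker sums were also lower, at 373 to 648 TPM at 18 months and 228 to 348 TPM at 20 months. So were endothelial sums (155 to 186 and 124 to 144 TPM) and macrophage sums (384 to 537 and 182 to 378 TPM). Brown fat sums were higher, at 39.2 to 92.4 and 201 to 343 TPM, while white fat and erythroid sums overlapped. None of the 12 muscle markers was at 0 in all libraries of a group. The part of these cell types in the member values was not tested beyond the muscle covariate. Genes known from striated muscle were higher beside the members: Cox7a1 by 2.45 (adjusted p = 0.020), the ADP/ATP carrier Slc25a4 by 1.78, Coq8a by 1.93 and the regulator Perm1 by 1.84, while the widely expressed carrier Slc25a5 fell by 0.75. Of 19 glycolysis models 10 were higher and 3 lower, with Pgk1 at 1.18, Tpi1 at 1.21 and Pfkl at -1.15, and 2 of 16 citric acid cycle genes were higher, Sucla2 (0.79) among them. In the Esr1 line 0 of 91 members were called with age, 2 had an unadjusted p under 0.05, and 0.00517% of all genes were called in either direction. The median was -0.04 against -0.14, and the smallest p belonged to Ndufa12 (0.76, adjusted p = 0.73) and Ndufaf8 (-0.44, adjusted p = 0.73). The sign of that median rests on single libraries: it was 0.18 without untreated Esr1 replicate 2 and 0.02 without 18-month Esr1 replicate 3, and under median-ratio scaling it was 0.15. The difference between the lines in the age effect, tested as an interaction, was called for 0 members with 7 at an unadjusted p under 0.05, and for 0.00517% of all genes. Ndufc1 (0.76, adjusted p = 0.47) and Atp5e (0.75, adjusted p = 0.49) had the smallest p.

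Letrozole in the Esr1 line was the drug comparison with the most called members: 16 of 91 rose against the untreated Esr1 mice and none fell, where 2.85% of all genes were called higher. They comprised 7 complex I subunits, 1 of complex II, 2 of complex III, 2 of complex IV and 4 of ATP synthase. Over all members 87 differences were positive and 4 negative, the median was 0.47 against -0.01 over all genes, and in 57 members the groups did not overlap, as in 11.2% of all genes. Ndufs5, an accessory subunit on the intermembrane face of complex I whose promoter is shown above, had the largest called difference. It was at 33.4, 17.8 and 38.8 TPM in untreated and 60.6, 63.1 and 62.0 TPM in letrozole-treated Esr1 mice. The treated values were tightly grouped above all untreated values, with a difference of 1.09 (SE 0.22, adjusted p = 0.0079). Its CYP19A1 values did not show this order, at 44.8, 37.0 and 45.0 TPM untreated and 48.7, 44.6 and 35.4 TPM with letrozole, which overlap. Atp5e rose from 84.6, 70.4 and 142 TPM to 191, 190.3 and 173 TPM, a difference of 0.96 (SE 0.20, adjusted p = 0.0082).

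The other complex I subunits that rose were Ndufa2 (0.72, adjusted p = 0.010), Ndufs3 (0.68, adjusted p = 0.018), Ndufc1 (0.78, adjusted p = 0.020), Ndufb11 (0.54, adjusted p = 0.028), Ndufa3 (0.61, adjusted p = 0.032) and Ndufb2 (0.54, adjusted p = 0.036). Sdhc was at 54.6, 41.9 and 79.0 TPM untreated and 92.4, 92.6 and 92.3 TPM with letrozole, a difference of 0.70 (SE 0.18, adjusted p = 0.020). Uqcr10 was at 94.8, 58.4 and 102 TPM and 139.8, 142 and 136 TPM, a difference of 0.75 (SE 0.18, adjusted p = 0.016), and Uqcrq rose by 0.78 (adjusted p = 0.029). Cox5a was at 70.5, 54.3 and 85.5 TPM and 119.9, 122 and 103 TPM, a difference of 0.73 (SE 0.21, adjusted p = 0.035), and Ndufa4 rose by 0.58 (adjusted p = 0.043). In ATP synthase, besides Atp5e, the membrane subunits Atp5l (0.63, adjusted p = 0.015) and Atp5k (0.66, adjusted p = 0.0462) and the subunit c gene Atp5g3 (0.57, adjusted p = 0.024) rose. Of these 16 members, 12 were also called between the untreated lines. The comparisons share the untreated Esr1 libraries, so their chance variation is shared too.

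The letrozole count was 52 without untreated Esr1 replicate 1, where 11.5% of all genes were called higher, and 3 without untreated Esr1 replicate 2, where 0.405% were. It was 3, 2 and 8 without letrozole replicates 1, 2 and 3, with 0.623%, 0.368% and 0.897% of all genes, and 9 without the 3 libraries that stand apart, with 2.07%. Without untreated Esr1 replicate 2 the median difference of the members fell from 0.47 to 0.26, and that of all genes from -0.01 to -0.17. The count was 0 when only these 2 groups entered the fit, 35 under median-ratio scaling (9.56% of genes higher) and 50 after rescaling to nuclear protein-coding genes (7.81% higher), and the split over all genes went from 550 higher and 1122 lower to 1823 and 2275 under median-ratio scaling. Epithelial markers moved with this comparison: 6 of 8 were lower, among them Elf5 (-2.93), Krt8 (-1.77) and Epcam (-1.94), and their sum was 436 to 600.3 TPM untreated and 110.4 to 183 TPM with letrozole. Of 8 T and NK cell markers 5 were lower, with sums of 41.9 to 45.1 and 10.9 to 23.4 TPM. No muscle marker was called, though the sums did not overlap at 5789 to 18311 TPM untreated and 26749.7 to 29634 TPM with letrozole, and 19 members were called with the muscle score as a covariate, with 4.32% of all genes. The part of epithelium and of T and NK cells was not tested. Of the mitochondrially encoded genes, mt-Nd3 (0.83), mt-Co3 (1.36) and mt-Atp6 (1.17) were higher, 1 each of 7 for complex I, 3 for complex IV and 2 for ATP synthase, and the 1 gene for complex III was not called. The complex III assembly factor Uqcc2 (0.80), Idh3a of the citric acid cycle (0.83), the coactivator Ppargc1a, also on the list of brown fat markers (0.71) and Slc25a4 (1.26) were higher and Slc25a5 (-0.56) lower. Of 19 glycolysis models 4 were higher (Pgk1, Tpi1, Ldha and Hk2) and 2 lower (Pfkl and Aldoc).

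With tamoxifen in the Esr1 line a single member rose, Atp5e, where 0.709% of all genes were called higher. A single call is close to that share, so the count is no result about the members. Atp5e was at 84.6, 70.4 and 142 TPM untreated and 184, 147 and 201 TPM with tamoxifen, groups that did not overlap, with a difference of 0.89 (SE 0.20, adjusted p = 0.033). Ndufa2 came next at 0.62 (adjusted p = 0.0509). An unadjusted p under 0.05 was found for 26 members, with no share of all genes at that threshold beside it. Of the differences 80 were positive and 11 negative, and the median was 0.29 against 0.05 over all genes. The call was absent without untreated Esr1 replicate 2, without tamoxifen replicate 1 or 3, without the 3 libraries that stand apart and with only the 2 groups in the fit. The count was 3 and 5 without untreated replicates 1 and 3 (4.53% and 1.44% of all genes higher), 2 without tamoxifen replicate 2 (0.474%), 2 with the muscle score as a covariate (1.7%) and 11 after rescaling to nuclear protein-coding genes. Without untreated Esr1 replicate 2 the median difference of the members fell from 0.29 to 0.09, and that of all genes from 0.05 to -0.11. Rescaling to nuclear protein-coding genes moved the split over all genes from 137 higher and 162 lower to 655 and 481. mt-Atp6 was also higher, by 1.23 (adjusted p = 0.040), and the T cell markers Cd3d and Trac were lower, with T and NK cell sums of 41.9 to 45.1 TPM untreated and 13.1 to 19.4 TPM with tamoxifen. Muscle marker sums were 5789 to 18311 TPM untreated and 20787 to 29248 TPM with tamoxifen, with none called, and the part of T and NK cells was not tested. In the CYP19A1 line 0 members were called with tamoxifen, 2 had an unadjusted p under 0.05 and 0.16% of all genes were called in either direction, with a median of 0.12 against 0.05. Cox8a (0.59, adjusted p = 0.78) and Cox6b2 (0.56, adjusted p = 1.0) had the smallest p. With letrozole in that line 0 members were called, 1 had an unadjusted p under 0.05 and 0.0207% of all genes were called, with a median of 0.04 against -0.10. Ndufa12 (-0.58, adjusted p = 1.0) and Atp5g2 (0.44, adjusted p = 1.0) had the smallest p. Atp5e in the CYP19A1 line was at 197, 183 and 243 TPM untreated and stood at 204, 224 and 179 TPM with tamoxifen and 222, 202 and 202 TPM with letrozole, all overlapping.

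Whether a drug acted differently in the 2 lines was tested as an interaction. For letrozole 0 members were called, where 0% of all genes were called by adjusted p. An unadjusted p under 0.05 was found for 23 members. The share of all genes at that threshold is not given, so the 23 are no result about the members. Of the interaction terms 88 of 91 were negative, with a median of -0.40 against -0.10 over all genes, and Ndufs5 (-1.08, adjusted p = 0.27) and Atp5e (-0.94, adjusted p = 0.28) had the smallest p. That median was -0.22 without untreated Esr1 replicate 2, with 0.07 over all genes. For tamoxifen 0 members were called, 3 had an unadjusted p under 0.05 and 0% of all genes were called, with a median of -0.16 against 0.01 and the smallest p in Atp5e (-0.92, adjusted p = 0.31) and Ndufa2 (-0.51, adjusted p = 0.44). Without untreated Esr1 replicate 2 the tamoxifen median turned to 0.05, against 0.19 over all genes. The calls of letrozole in the Esr1 line and their absence in the CYP19A1 line are therefore not shown to differ. The 2 drugs gave no called member in either line: in Esr1 mice 0 were called, 3 had an unadjusted p under 0.05 and 0.129% of all genes were called, with 86 of 91 members lower under tamoxifen than letrozole by sign and a median of -0.19 against 0.05. Ndufa4l2, a paralog of Ndufa4 known from hypoxia, had the smallest p there (-0.49, adjusted p = 0.62), and Ndufs5 stood at 39.9, 36.2 and 60.8 TPM with tamoxifen and 60.6, 63.1 and 62.0 TPM with letrozole, which overlap. In CYP19A1 mice 0 members were called between the drugs, 3 had an unadjusted p under 0.05 and 0.248% of all genes were called, with a median of 0.08 against 0.16. Cox8a (0.61, adjusted p = 0.34) and Cox6a1 (0.51, adjusted p = 0.37) had the smallest p. That median turned to -0.14 under median-ratio scaling and to -0.04 after rescaling to nuclear protein-coding genes.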

How the data were processed

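Per the labels' protocols, total RNA was depleted of rRNA and made into stranded libraries with random-primed cDNA. The values are TPM as deposited by the authors, 1 table of 55487 genes and 24 libraries; build mm10 and the tools RSEM 1.3.1, STAR 2.7.9a, Trim Galore 0.6.5 and FastQC 0.11.9 stand in the submitters' processing notes, but their roles and the annotation are not given there. TPM keeps no depth, so no counting interval was given, and genes with near-identical pseudogenes are uncertain. Tests used log2(TPM + 1) values in limma 3.58.1 (R 4.3.3; lmFit, contrasts, eBayes with trend and robust) over the 19325 genes that reached 1 TPM in 3 or more libraries, all 24 libraries in 1 fit of 8 groups, with Benjamini-Hochberg adjusted p under 0.05 within each of 16 comparisons; intervals beside differences are standard errors. Comparisons with an untreated group in common share its chance variation. The fit was tested on simulated data with 200 changed genes. The members, the companion gene lists, the marker lists and the tests were chosen with earlier results of these data known. The values of some genes are not reported here. Members are named by a rule: the 3 most abundant of each complex, paralogs of complex IV and subunit c, up to 8 per direction with the smallest p in each comparison (2 where none passed), the 5 most and 5 least variable, up to 4 called genes per companion list, and Cox7a1 and Cox8b; other members and genes named were picked after their values were seen. Alternatives were median-ratio scaling, rescaling to nuclear protein-coding genes, a pseudocount of 0.1, no filter, only the compared groups in the fit, a replicate block, the muscle marker score as covariate and leaving out each library; leaving out 3 libraries together, and rescaling with the muscle covariate, were chosen after seeing the data. Tables and figures used Python 3.11.15 with pandas 2.3.3, numpy 2.4.6 and matplotlib 3.10.9.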

Additional observations from a re-analysis of the deposited data

How the results depend on the processing

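In order of the untreated lines, the mean over 4 conditions, age in CYP19A1, tamoxifen in Esr1 and letrozole in Esr1, the called members numbered 19, 21, 3, 1 and 16; under median-ratio scaling 28, 31, 44, 1 and 35, after rescaling to nuclear protein-coding genes 49, 51, 39, 11 and 50, with a pseudocount of 0.1 19, 20, 1, 1 and 16, without a filter 14, 18, 0, 1 and 10, with the muscle covariate 25, 30, 0, 2 and 19, with rescaling and the muscle covariate 51, 53, 3, 14 and 53, and without the 3 libraries that stand apart 9, 19, 10, 0 and 9. With only the compared groups in the fit 0, 0, 0 and 0 passed, the mean not being run that way. A replicate block gave 14, 17, 1, 1 and 14. Over 84 pairs of libraries with the same number the median correlation of deviations was -0.003, against 0.005 for pairs with different numbers. Single correlations ran from -0.41 to 0.30, with 19 above 0.1. No pairing was used, and a median over groups of 3 cannot settle whether the numbers pair mice. Leaving out 1 library gave 1 to 43, 13 to 39, 0 to 2, 0 to 5 and 2 to 52. Calls over all genes moved with the settings too. For the untreated lines, the mean, age in CYP19A1 and letrozole in Esr1, 2.12%, 3.96%, 3.01% and 2.85% of genes were called higher. After rescaling to nuclear protein-coding genes these shares were 7.07%, 5.83%, 6.08% and 7.81%. Where no share is given here or above, a changed count is no result about the members. Between the lines with tamoxifen 1 passed under median-ratio scaling (Cox6b2, 0.92), 3 without the 3 libraries (Cox6b2 0.94, Cox7a2 0.53) and 0 to 1 with 1 library left out (Cox6b2 1.16), and at 18 months 1 without the 3 libraries; in every other comparison the count was 0 in all settings. Over all settings the median difference of the members ran from 0.06 to 0.20 between the lines at 18 months, 0.21 to 0.40 with tamoxifen and -0.00015 to 0.18 with letrozole, from -0.18 to 0.18 for age in Esr1, 0.02 to 0.23 for tamoxifen and -0.05 to 0.18 for letrozole in CYP19A1, from -0.26 to -0.11 and -0.14 to 0.18 between the drugs in Esr1 and CYP19A1, and from 0.12 to 0.45, -0.29 to 0.05 and -0.53 to -0.22 for the line differences in age, tamoxifen and letrozole effects. Median-ratio scaling moved median levels of the complexes relative to all libraries: in 18-month Esr1 mice to -0.39 (complex I), -0.56 (complex II) and -0.38 (complex IV), in 18-month CYP19A1 mice to -0.37, -0.20 (assembly factors), -0.39, -0.49 (complex III), -0.28 and -0.29 (ATP synthase), with letrozole in Esr1 to 0.25 (complex II) and 0.13 (complex IV), and with letrozole in CYP19A1 to 0.39, 0.46, 0.44, 0.41 and 0.40 for complexes I to IV and ATP synthase; rescaling to nuclear protein-coding genes put the assembly factors at 0.0603 with tamoxifen in Esr1. Of 519 repeats of called members under other settings, 420 kept the call and 99 lost it, of 738 with 1 library left out 530 and 208, and none changed sign; causes were not tested. With 3 mice per group and TPM without depth, no limit of detection can be given for low genes such as Cox4i2.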

Other observations

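The name rule also matched 13 genes that are not protein-coding, 12 processed pseudogenes and 1 long non-coding RNA, and 2 of them had levels like those of subunits. Ndufb1-ps ranged from 49.2 TPM in untreated Esr1 replicate 2 to 114 TPM in tamoxifen-treated CYP19A1 replicate 2, and Ndufb4c from 44.5 to 108 TPM in the same 2 libraries. Reads of Ndufb4c may be shared with the member Ndufb4, which it resembles by name, whereas no Ndufb1 is among the members beside Ndufb1-ps. Neither entered a test of the members. Ucp1, the uncoupling protein of brown fat, ranged from 0 TPM in letrozole-treated Esr1 replicate 3 to 149 TPM in tamoxifen-treated CYP19A1 replicate 2, the library with the highest summed level of the respiratory chain genes, while tamoxifen-treated CYP19A1 replicate 3 had 0.39 TPM.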
